A study of Mus musculus with 2 samples.

Results

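The MYC, MAX and MXD network was described here through 10 genes, *Myc*, *Mycn*, *Mycl*, *Max*, *Mxd1*, *Mxd3*, *Mxd4*, *Mxi1*, *Mnt* and *Mlx*, which were picked by their symbols from the 32285 genes of the count matrices. All 10 were found in both matrices. The matrices came from 2 droplet-based, 3′-end single-cell RNA-seq libraries of mouse bone marrow, 1 labelled control (Ctrl) and 1 labelled *Map4k4* conditional knockout (cKO). In both, c-Kit+ progenitors and red-cell-lysed bone marrow cells of C57BL/6 littermates aged 13 to 14 weeks were mixed at 2 parts to 3 parts. The study's methods write the cKO genotype as Mx1-Cre *Map4k4* f/f and that of the controls as Mx1-Cre *Map4k4*-/-, so Cre is named in both groups. The Mx1 promoter is induced by interferon and acts in many cell types. It was switched on in the f/f animals by intraperitoneal poly I:C, an interferon inducer, and whether the control animals also received it is not given in the sources used here. The number of mice behind each library is not given either. With 1 library per genotype, the genotype cannot be told apart from the library, and no p-value was computed between them.

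MYC, MYCN and MYCL are basic helix-loop-helix leucine zipper transcription factors that bind DNA only as pairs with MAX. At E-boxes, short sites whose canonical form is CACGTG, MYC-MAX pairs raise transcription of genes for ribosome biogenesis, nucleotide synthesis and cell growth. MXD1, MXD3, MXD4, MXI1 and MNT pair with the same MAX protein and recruit SIN3 corepressors to the same sites. MLX is a MAX-like protein that pairs with the glucose-responsive MLXIP and MLXIPL and with some of the MXD proteins. MYC-class and MXD-class proteins thus compete for MAX, and in myeloid cells MXD1 is known as a gene switched on during terminal differentiation. Neutrophils arise in the marrow from granulocyte-monocyte progenitors through dividing stages to post-mitotic, segmented cells.

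Barcodes outside 200 to 9000 genes, or with over 30% of their UMIs (unique molecular identifiers, 1 per captured transcript) from mitochondria, were dropped. This left 9965 of 10220 in Ctrl and 6718 of 6872 in cKO, from libraries of 71527701 and 64393950 UMIs. The median cell held 4111 UMIs in Ctrl and 6243.5 in cKO. Of the cell barcodes, 3010 occurred in both libraries, and the shared barcodes that were kept fell into the same class in 11.2% of cases, against 11.7% for any pair of cells. Cells were assigned to classes by marker genes that include none of the 10 members. Along the neutrophil path these were HSC/MPP-like (hematopoietic stem and multipotent progenitor), GMP-like, ProNeu-like (primary granule genes), PreNeu-like (secondary granule and cell cycle genes), imNeu-like (secondary granule genes without cycling), imNeu/mNeu (passing to mature) and mNeu-like cells. With ProMon-like (monocyte progenitor) and MEP-like (megakaryocyte-erythroid progenitor) cells, 9 classes held at least 50 cells in each library, and 18 did so in Ctrl. No class was given to 15.8% of Ctrl and 30.6% of cKO cells. *Map4k4* stood at 72.6 CPM (UMIs scaled to a total of 1000000) in Ctrl and 64.3 CPM in cKO, a log2 ratio of -0.17 (-0.23 to -0.12). Counts at the 3′ end do not show which exons were transcribed, so this level does not check the label.

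The members changed places along the neutrophil path: *Myc* was the abundant transcript in progenitors and *Mxd1* in mature neutrophils, with *Max* present throughout and highest at the end. Values are UMIs summed over the cells of a class, divided by all UMIs of those cells, and given with 95% intervals (exact Poisson for a level, exact binomial for a ratio) that cover counting error only. Since 1 UMI stands for 1 transcript end whatever the transcript's length, levels of different members were set side by side in CPM. From HSC/MPP-like to mNeu-like cells, *Myc*, *Mycn* and *Mxd3* were at least 2-fold lower in both libraries. That was 3 of 9 members with enough UMIs, where 52.4% of the 9741 genes tested were. *Max*, *Mxd1* and *Mxi1* were at least 2-fold higher in both, again 3 of 9, where 13.3% of all genes were. The median log2 ratio of the 9741 genes was -1.22 in Ctrl and -1.53 in cKO. In RNA per cell the picture is narrower, because a mNeu-like cell gave a median of 2207 UMIs in Ctrl and 5845 in cKO against 8587 and 11161 in an HSC/MPP-like cell. Counted per cell without scaling, 5 members were at least 2-fold lower (*Mxd4* and *Mnt* besides the 3 above) and only *Mxd1* was at least 2-fold higher in both libraries. With class sums scaled by the median of gene ratios instead, 4 were higher (*Mlx* joined) and 2 lower (*Mxd3* left). The share of all genes past 2-fold under these scalings is not given, so the counts are not read as a result about the members.

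**Figure D1:**
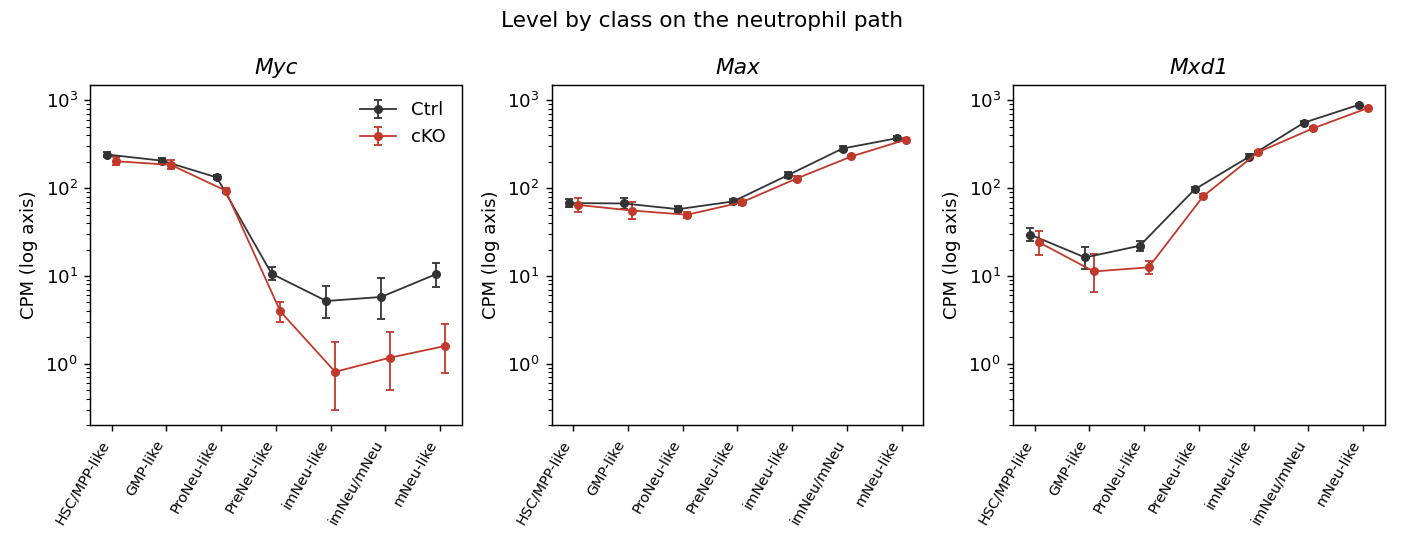
Levels of *Myc*, *Max* and *Mxd1* (CPM, log axis) in the 7 classes of the neutrophil path, from HSC/MPP-like to mNeu-like cells, in the Ctrl and the cKO library, with 95% Poisson intervals as bars. *Myc* falls from 241 to 10.5 CPM in Ctrl and from 202 to 1.59 CPM in cKO, while *Mxd1* rises from 29.6 to 891 CPM and from 24.1 to 816 CPM.

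*Myc* (ENSMUSG00000022346, GRCm38 chr15:61985391-61990374, plus strand), the founding member of the network and a driver of growth and division, held 5768 UMIs in Ctrl and 2514 in cKO. In Ctrl its level was 241 CPM (228 to 255) in HSC/MPP-like, 206 CPM (190 to 223) in GMP-like and 132 CPM (126 to 139) in ProNeu-like cells. In cKO the same classes held 202 CPM (181 to 225), 184 CPM (163 to 207) and 93.7 CPM (88.3 to 99.4). The interval of HSC/MPP-like over GMP-like cells held 0 in cKO, and in UMIs per cell GMP-like cells were above HSC/MPP-like cells, at 3.32 against 2.44 in Ctrl and 4.81 against 2.53 in cKO. The step with the greatest loss lay between ProNeu-like and PreNeu-like cells, where *Myc* dropped to 10.6 CPM (8.93 to 12.5) in Ctrl and 3.93 CPM (2.97 to 5.11) in cKO. These levels were 12.5-fold and 23.8-fold below those of ProNeu-like cells. Beyond it the level stayed low, at 5.18, 5.76 and 10.5 CPM in imNeu-like, imNeu/mNeu and mNeu-like cells of Ctrl and at 0.807, 1.17 and 1.59 CPM in cKO, from 25, 15 and 42 UMIs and from 6, 8 and 11 UMIs.

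RNA freed from broken cells reaches droplets of other cells, and its level was gauged from droplets with under 1000 UMIs in which primary granule, secondary granule and mature neutrophil transcripts occurred together (284 in Ctrl, 918 in cKO). *Myc* stood at 80.2 CPM in these droplets in Ctrl and 29.8 CPM in cKO. If all primary granule RNA of mNeu-like cells had come from such a mixture, they would hold up to 11.4 CPM of *Myc* in Ctrl and 1.35 CPM in cKO, against 10.5 and 1.59 CPM counted. These estimates rest on 16 *Myc* UMIs in the droplets of Ctrl and 20 in those of cKO. The counting error of those UMIs is not carried into the estimates. The counted levels lay near them, so the *Myc* level in mature neutrophils could not be told from background. In PreNeu-like cells the same estimate was 6.21 and 2.41 CPM, below the 10.6 and 3.93 CPM counted. The gauge is rough, since it overshoots where a class expresses the gauging genes itself. It can also fall short, since the droplets were picked by a minimum share of the same genes. The values are thus not strict upper bounds.

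Outside the neutrophil path, *Myc* was highest in MEP-like cells, and the remaining classes formed an intermediate and a lower group. MEP-like cells held 166 CPM (156 to 177) in Ctrl and 114 CPM (101 to 128) in cKO. The classes that followed in Ctrl were basophil, mast or eosinophil-like cells at 111 CPM, ProB-like cells at 90.0 CPM, megakaryocyte-like cells at 82.8 CPM, T/NK-like cells at 73.5 CPM and macrophage-like cells at 72.3 CPM. Macrophage-like cells of Ctrl held a median of 1085 UMIs, with 2.87% primary and 2.14% secondary granule marker UMIs. Neutrophil precursor RNA in these droplets was not gauged, so their *Myc* level is not read as that of macrophages. From ProNeu-like down to macrophage-like cells, the interval of each neighbour's ratio held 0, so this stretch of the order is not settled at this depth. ProEry-like (23.5 CPM), plasma cell-like (18.9 CPM), ProMon-like (18.8 CPM), pDC-like (18.1 CPM) and B-like cells (18.0 CPM) made up a lower group. The free RNA estimate was up to 24.4 CPM in B-like and 18.9 CPM in ProMon-like cells of Ctrl, so these levels could not be told from background. Free RNA was not gauged in the other classes of this group.

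The paralogs *Mycn* (ENSMUSG00000037169, chr12:12936093-12941914, minus strand) and *Mycl* (ENSMUSG00000028654, chr4:122995652-123002485, plus strand) were rare and each kept to few classes. *Mycn*, known to act beside *Myc* in stem cells, held 206 UMIs in Ctrl, of which 154 lay in HSC/MPP-like and megakaryocyte-like cells. Its level was 17.9 CPM (14.4 to 22.0) in HSC/MPP-like cells of Ctrl and 27.1 CPM (19.8 to 36.3) in those of cKO. In the 73 megakaryocyte-like cells of Ctrl it reached 59.8 CPM (46.2 to 76.2). No UMI of *Mycn* was found in GMP-like cells, where a count of 0 leaves room for up to 1.01 CPM in Ctrl and 1.98 CPM in cKO. *Mycl*, a gene known from dendritic cells, held 91 UMIs in Ctrl and 8 in cKO. Of the 91, 59 fell into pDC-like cells (68.8 CPM, 48.7 to 94.4) and 31 cDC-like cells (81.8 CPM, 50.6 to 125). *Mycl* was thus the member nearest to being a dendritic cell gene, and neither dendritic class held enough cKO cells for a level there.

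**Figure D2:**
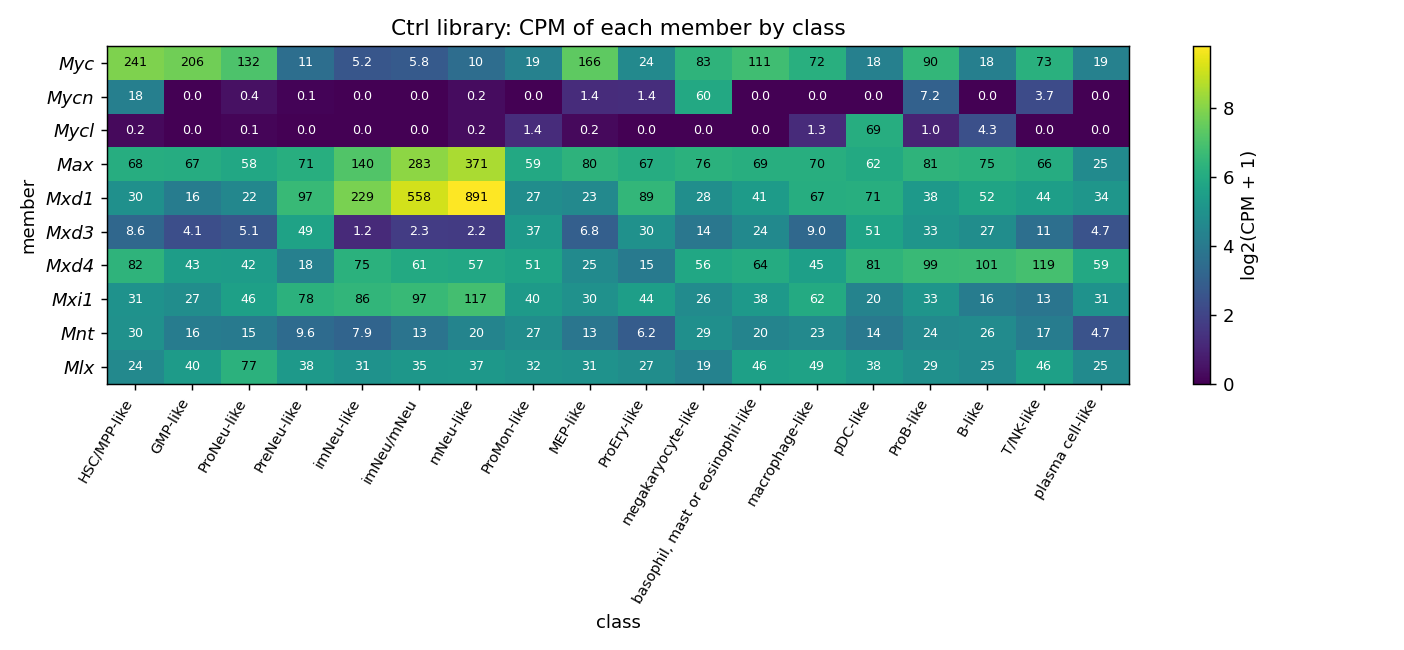
Level of each of the 10 members (CPM, colour on a log scale) in the 18 classes with at least 50 Ctrl cells, Ctrl library. *Mxd1* and *Max* are highest in mNeu-like cells (891 and 371 CPM), *Myc* in HSC/MPP-like cells (241 CPM), *Mycn* in megakaryocyte-like cells (59.8 CPM) and *Mycl* in pDC-like cells (68.8 CPM).

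*Max* (ENSMUSG00000059436, chr12:76937269-76962201, minus strand), the shared partner, was present in every class of the path and, as a share of UMIs, rose late. In Ctrl it stood at 67.6 CPM in HSC/MPP-like, 66.9 in GMP-like, 57.6 in ProNeu-like and 70.6 in PreNeu-like cells, then at 140 in imNeu-like, 283 in imNeu/mNeu and 371 CPM in mNeu-like cells. The cKO library gave 64.5, 55.5, 49.8, 69.1, 129, 230 and 358 CPM in the same order. From HSC/MPP-like to mNeu-like cells this was a log2 ratio of 2.46 (2.29 to 2.63) in Ctrl and 2.47 (2.19 to 2.76) in cKO, or 5.50-fold and 5.55-fold. In UMIs per cell there was no late rise in Ctrl, where the 7 classes held 0.683, 1.08, 0.997, 0.772, 0.743, 1.12 and 0.924, whereas cKO went through 0.805, 1.45, 1.22, 1.17, 1.52, 2.14 and 2.19. In the Ctrl order, each of the 3 late classes lay above the next with an interval clear of 0, and ProB-like (80.9 CPM) and MEP-like cells (79.7 CPM), which followed, could not be ordered. *Mlx* (ENSMUSG00000017801, chr11:101087277-101092207, plus strand), whose product has its own partners, peaked elsewhere. It was highest in ProNeu-like cells, at 77 CPM in Ctrl and 74.7 CPM in cKO, and stood at 23.7 and 27.1 CPM in HSC/MPP-like and 36.8 and 33.0 CPM in mNeu-like cells.

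*Mxd1* (ENSMUSG00000001156, chr6:86647042-86669161, minus strand), which encodes the MXD repressor tied to terminal differentiation, climbed in CPM at each stage after ProNeu. In Ctrl it rose from 22.1 CPM in ProNeu-like cells to 96.7 in PreNeu-like, 229 in imNeu-like, 558 in imNeu/mNeu and 891 CPM (862 to 921) in mNeu-like cells. In cKO the values were 12.5, 81.2, 257, 480 and 816 CPM (795 to 838). All 4 steps had intervals clear of 0 in both libraries. From HSC/MPP-like to mNeu-like cells *Mxd1* rose 30.1-fold in Ctrl, a log2 ratio of 4.91 (4.67 to 5.16), and 33.9-fold in cKO, a log2 ratio of 5.08 (4.63 to 5.57). Per cell it went from 0.299 to 2.22 UMIs in Ctrl and from 0.301 to 4.99 in cKO, and the last step in Ctrl, from 2.21 to 2.22 UMIs per cell, was flat, so that step rests on the scaling. No class outside the neutrophil path came near, the next being ProEry-like cells at 88.8 CPM, pDC-like cells at 70.6 CPM and macrophage-like cells at 67.1 CPM in Ctrl. Free RNA could account for up to 22.5 of the 29.6 CPM in HSC/MPP-like and 18.2 of the 22.1 CPM in ProNeu-like cells of Ctrl, but for 24.1 of the 96.7 CPM in PreNeu-like cells. The low early levels thus lie close to that estimate.

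The balance of the opposed genes turned over between ProNeu-like and PreNeu-like cells. The gates leave out early cells whose secondary granule share lies between these classes, which can sharpen the step. Of all *Mxd1* and *Myc* UMIs of a class, *Mxd1* made up 10.9% (9.30 to 12.7) in HSC/MPP-like, 7.32% (5.44 to 9.58) in GMP-like and 14.3% (12.7 to 16.1) in ProNeu-like cells of Ctrl. In PreNeu-like cells it made up 90.1% (88.5 to 91.6), and in mNeu-like cells 98.8%. The cKO library gave 10.6%, 5.74% and 11.8%, then 95.4% and 99.8% (exact Clopper-Pearson intervals throughout). Early *Mxd1* lay near or under the free RNA estimate, for instance at 16.2 against up to 18.1 CPM in GMP-like cells of Ctrl. In cKO it stood at 24.1 against up to 26.4 CPM in HSC/MPP-like and 11.2 against 13.7 CPM in GMP-like cells. In ProNeu-like cells of cKO it was 12.5 against up to 15.2 CPM. The early *Mxd1* shares thus show that *Mxd1* was low, and their differences are not read. Of the other progenitor classes, MEP-like cells gave 12.3% in Ctrl and 14.2% in cKO, and ProMon-like cells gave 59.1% and 74.1%. In ProMon-like cells both genes lay near or under the free RNA estimate, at 18.8 against up to 18.9 CPM for *Myc* and 27.2 against up to 73.1 CPM for *Mxd1* in Ctrl, so that balance is not read.

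Since deep cells show more transcripts, the share of cells with a UMI was also taken after each cell had been thinned to 1000 UMIs. For *Myc* it was 17.3% in HSC/MPP-like cells, then 11.0% in ProNeu-like, 1.08% in PreNeu-like and 0.872% in mNeu-like cells of Ctrl. In cKO it was 17.3%, 9.19%, 1.48% and 0.0904%. For *Mxd1* it was 1.75% in ProNeu-like, 9.71% in PreNeu-like and 58.4% in mNeu-like cells of Ctrl and 1.46%, 9.02% and 56.1% in cKO. Without thinning, 69.7% of HSC/MPP-like and 2.60% of mNeu-like cells of Ctrl held *Myc* (74.4% and 0.969% in cKO), and 82.0% of mNeu-like cells held *Mxd1* (94.0% in cKO). The turnover was therefore seen at equal depth as well. The *Myc* shares of mNeu-like cells are of a level that could not be told from background.

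To place the turnover more finely, ProNeu-like and PreNeu-like cells were binned by the share of secondary granule UMIs among their primary and secondary granule UMIs. Over the 6 bins from 0 to 10% up to 98 to 100%, *Myc* in Ctrl fell step by step through 137, 95.3, 51.3, 29.7, 12.6 and 5.69 CPM. In cKO it fell through 97.6, 58.2, 29.7, 15.3, 2.62 and 1.77 CPM. Over the same bins *Mxd1* went through 20.1, 40.1, 48.1, 50.8, 71.8 and 112 CPM in Ctrl and 11.5, 20.8, 41.6, 41.0, 51.3 and 98 CPM in cKO. Thus *Myc* declined gradually with granule gene turnover. In the last bin its level lay under the free RNA estimate for PreNeu-like cells in both libraries. At 30 to 60% the 2 genes stood close together in Ctrl, and in cKO the point estimate of *Mxd1* lay above that of *Myc*. This bin held only 21 *Myc* UMIs over both libraries, so the order of the 2 genes there is not read. imNeu-like to mNeu-like cells were binned by the share of mature neutrophil UMIs in the same way. From the first to the last of these 8 bins *Mxd1* rose from 185 to 965 CPM in Ctrl and from 206 to 854 CPM in cKO, and *Max* from 112 to 364 CPM and from 117 to 365 CPM.

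**Figure D3:**
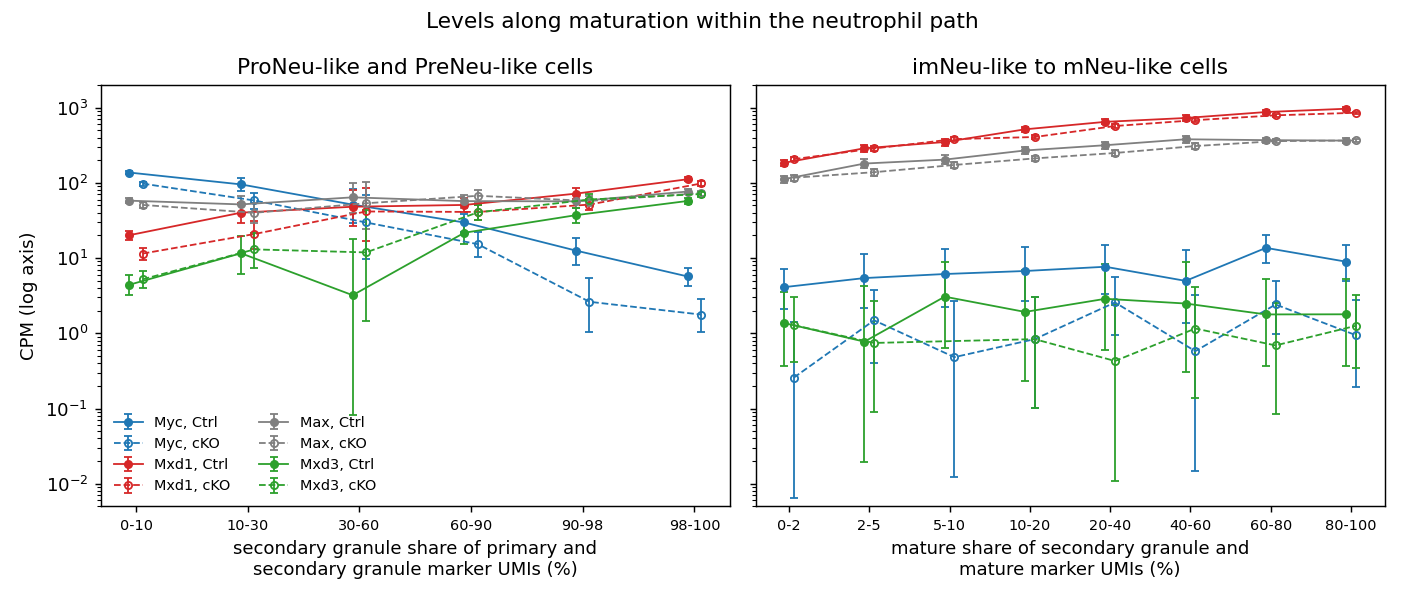
Levels of *Myc*, *Mxd1*, *Max* and *Mxd3* (CPM, log axis, 95% Poisson intervals) along maturation in both libraries: left, ProNeu-like and PreNeu-like cells by the secondary granule share of granule UMIs (%); right, imNeu-like to mNeu-like cells by the mature share (%); a bin with 0 UMIs is not drawn. *Myc* declines from 137 to 5.69 CPM in Ctrl on the left, while *Mxd1* continues upward on the right, to 965 CPM in Ctrl.

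*Mxd3* and *Mxd4* went other ways than *Mxd1*. *Mxd3* (ENSMUSG00000021485, chr13:55325168-55329823, minus strand), known to be expressed in cells in S phase, made a peak in PreNeu-like cells. It stood at 5.13 CPM in ProNeu-like, 48.7 in PreNeu-like and 1.24 CPM in imNeu-like cells of Ctrl and at 5.97, 64.3 and 0.942 CPM in cKO. The rise into PreNeu was 3.25 and 3.43 on the log2 scale and the ratio on leaving it -5.29 and -6.09. PreNeu-like and imNeu-like cells were separated by their cell cycle genes, so this pair of classes differs in cycling by construction. *Mxd3* was also present in ProMon-like (37.0 CPM), pDC-like (50.7 CPM), ProB-like (33.2 CPM) and ProEry-like cells (30.2 CPM) of Ctrl. *Mxd4* (ENSMUSG00000037235, chr5:34173883-34187720, minus strand), a repressor linked to differentiating cells, made the reverse pattern on the neutrophil path. It stood at 42.0 CPM in ProNeu-like, 18.4 in PreNeu-like and 75.0 CPM in imNeu-like cells of Ctrl and at 36.7, 11.0 and 49.6 CPM in cKO. In Ctrl it was highest in T/NK-like (119 CPM), B-like (101 CPM) and ProB-like cells (99.2 CPM), whose neighbouring intervals held 0 between the first and the second and between the second and the third.

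Because *Mxd3* and *Mxd4* parted at the cycling stage, cells within 5 progenitor classes (HSC/MPP-like, GMP-like, ProNeu-like, ProMon-like and MEP-like) were ranked by their share of cell cycle UMIs and the top and bottom of 3 equal groups were compared, giving 10 sets of 1 class and 1 library. Over members and sets, 74 ratios had enough UMIs, of which 9 were at least 2-fold higher in the cycling cells, where 7.91% of all gene sets were, and 9 at least 2-fold lower, where 4.86% were. *Mxd3* reached the minimum of 20 UMIs in 6 sets, in each of them through the cycling group, so the count of calls among those sets is not read. Over all 10 sets with no minimum its level was higher in cycling cells in 9. In ProMon-like cells it stood at 72.8 CPM in cycling against 0 UMIs in non-cycling cells of Ctrl, at least 25.3-fold higher (floor of 3 UMIs), and at 79.8 against 3.26 CPM in cKO. In HSC/MPP-like cells of Ctrl it was 17.9 against 0.858 CPM, the latter from 1 UMI, a log2 ratio of 4.38 (1.83 to 9.72). In ProNeu-like cells it was 9.10 against 1.64 CPM in Ctrl and 13.3 against 1.05 CPM in cKO. The exception was MEP-like cells of cKO, at 10.0 against 11.6 CPM from 11 and 4 UMIs.

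*Mxd4* and *Mycn* lay on the other side. *Mxd4* was lower in cycling cells with an interval below 0 in 7 of 9 sets tested, and at least 2-fold lower in 3: HSC/MPP-like cells of Ctrl (60.3 against 129 CPM) and ProMon-like cells of Ctrl (23.0 against 92.3 CPM) and cKO (15.3 against 69.5 CPM). *Mycn* was tested in HSC/MPP-like cells alone and stood at 8.75 against 44.6 CPM in Ctrl and 11.4 against 57.4 CPM in cKO, log2 ratios of -2.35 (-3.17 to -1.58) and -2.34 (-3.70 to -1.14). Within the stem and progenitor class, *Mycn* was thus the more abundant in cells with few cell cycle transcripts in both libraries. *Myc* was lower in cycling cells with an interval below 0 in 6 of 10 sets and above 0 in 2, both of ProMon-like cells, whose level lay near the free RNA estimate. It was at least 2-fold lower in cycling GMP-like cells of Ctrl (155 against 313 CPM) and cycling MEP-like cells of Ctrl (105 against 235 CPM) and cKO (71.1 against 229 CPM), and at least 2-fold higher in cycling ProMon-like cells, at 25.4 against 6.73 CPM in Ctrl and 14.2 against 2.17 CPM in cKO, the last from 2 UMIs. The interval held 0 in 9 of 10 sets for *Max* and in every set tested for *Mxi1* (10), *Mnt* (8) and *Mlx* (10). Depth differed between the groups, for instance with a median of 13188 UMIs in cycling against 6900 in non-cycling HSC/MPP-like cells of Ctrl and of 23263 against 28208 in GMP-like cells of cKO. The gap was widest in MEP-like cells of cKO, at 44321 against 5054.5 UMIs. There *Myc* held 78 against 79 UMIs in equal numbers of cells, and *Mxd4* held 138 against 150 in HSC/MPP-like cells of Ctrl. Those calls rest on the scaling. For *Myc* the UMIs were 191 against 221 in GMP-like and 231 against 322 in MEP-like cells of Ctrl. For *Mxd4* in ProMon-like cells they were 49 against 96 in Ctrl and 27 against 64 in cKO. Other differences between cycling and non-cycling cells of a class, such as their stage, were not tested.

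**Figure D4:**
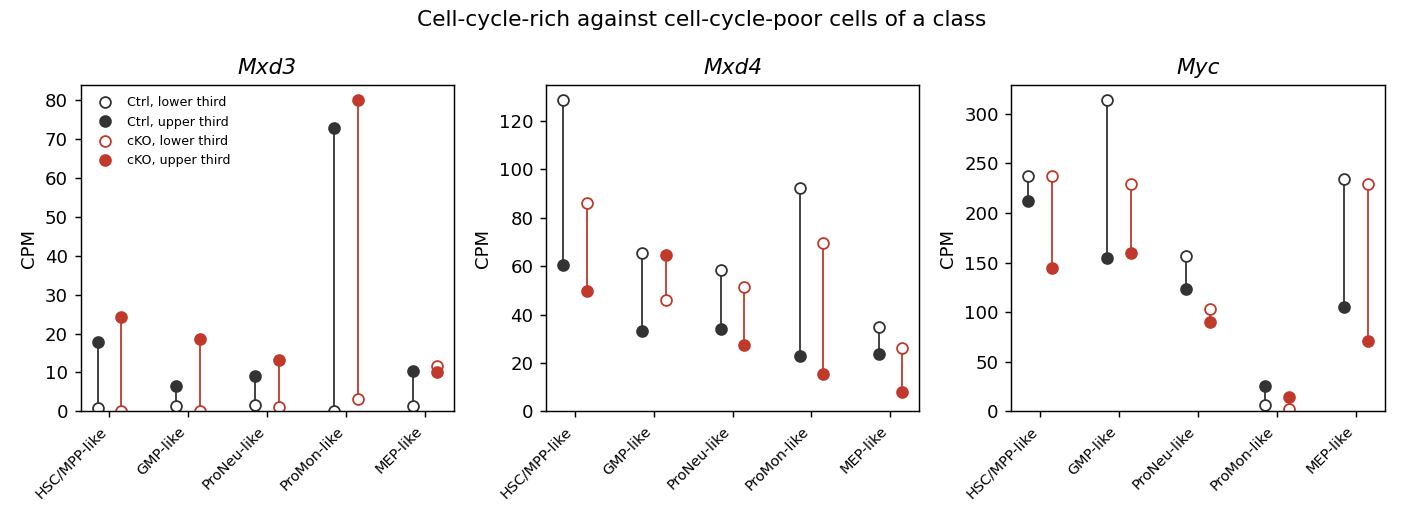
Levels of *Mxd3*, *Mxd4* and *Myc* (CPM) in the most and the least cycling of 3 equal groups of cells, ranked by the share of cell cycle UMIs, in 5 progenitor classes of both libraries. *Mxd3* is higher in the cycling group (72.8 CPM against 0 UMIs in ProMon-like cells of Ctrl) and *Mxd4* lower (23.0 against 92.3 CPM), while *Myc* is lower in most classes and higher in ProMon-like cells (25.4 against 6.73 CPM in Ctrl).

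*Mxi1* (ENSMUSG00000025025, chr19:53310518-53375810, plus strand), a MXD-class repressor also known as MXD2, rose evenly. It went from 31.0 CPM in HSC/MPP-like through 46.1 in ProNeu-like and 78.1 in PreNeu-like to 117 CPM in mNeu-like cells of Ctrl, and through 20.5, 34.3, 57.9 and 82.2 CPM in cKO. The log2 ratio of mNeu-like over HSC/MPP-like cells was 1.91 and 2.00, but per cell it was -0.11 in Ctrl and 0.97 in cKO. In Ctrl the rise of *Mxi1* thus rests on the scaling to total UMIs, and in cKO it is smaller without that scaling. *Mnt* (ENSMUSG00000000282, chr11:74830920-74845725, plus strand), a repressor present in most tissues, made a shallow trough. It stood at 30.4 CPM in HSC/MPP-like, 7.87 in imNeu-like and 20.4 CPM in mNeu-like cells of Ctrl and at 27.7, 5.79 and 20.8 CPM in cKO. For *Mxd4* and *Mnt* the log2 ratio of mNeu-like over HSC/MPP-like cells was between -0.57 and -0.42 in both libraries, which is a fall in CPM but lies above the median of all genes, so the direction turns once ratios are centred on that median.

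Genes of the wider pathway were followed through 4 lists taken from general knowledge. Among genes commonly activated by MYC, which serve ribosome and nucleotide synthesis, 42 of 43 tested were at least 2-fold lower in mNeu-like than in HSC/MPP-like cells in both libraries, where 52.4% of all genes were, with a median log2 ratio of -3.53 in Ctrl and -5.18 in cKO against -1.22 and -1.53 for all genes. Their share of all UMIs was 1.15% in HSC/MPP-like cells, then 1.0% in ProNeu-like, 0.218% in PreNeu-like and 0.132% in mNeu-like cells of Ctrl, and 1.04%, 0.963%, 0.182% and 0.0932% in cKO. The list thus shrank at the same stage as *Myc* itself. Its lowest ratios belonged to *Polr1b*, an RNA polymerase I subunit (28.8 to 1.99 CPM in Ctrl), and *Apex1*, a DNA repair enzyme (116 to 5.48 CPM in Ctrl, 110 to 1.30 CPM in cKO). Its highest belonged to the glycolytic enzyme *Ldha*, at log2 ratios of -0.37 and 0.20 and the only member not called, and the translation factor *Eif5a*, at -1.48 and -2.16.

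Genes commonly repressed by MYC had no shared direction in CPM, but their median lay above that of all genes. Of 7 tested, 2 were at least 2-fold lower in both libraries, where 52.4% of all genes were: the cell cycle inhibitors *Cdkn1a* (log2 -5.14 and -6.35) and *Cdkn2c* (-1.22 and -2.87). Another 2 were higher, where 13.3% of all genes were: the growth-arrest genes *Btg1* (3.16 and 3.14) and *Gadd45a* (3.55 and 3.15). The list medians were 0.61 and 0.76, against -1.22 and -1.53 for all genes. From HSC/MPP-like to mNeu-like cells the list's share of UMIs went from 0.0609% to 0.187% in Ctrl and from 0.0476% to 0.138% in cKO. Among partners and cofactors, 15 of 29 were lower, about the 52.4% of all genes, with the lowest ratios in *Skp2*, a ubiquitin ligase subunit (-4.31 and -4.55), and the acetyltransferase *Kat2a* (-4.01 and -5.45). Only *Ppp2r5a*, a phosphatase subunit (1.49 and 1.38), was higher, next to the kinase *Cdk9*, which was not called (0.52 and 0.21). The medians of -1.01 and -1.06 lay near those of all genes. Of 38 cell cycle genes 37 were lower, with medians of -2.98 and -4.49. The list ran from *Ung* (-4.69 and -6.79) and *Hells* (-3.99 and -5.72), which act in S phase, to *Rrm2* (-1.10 and -2.02) and *Kif23* (-0.94 and -1.04).

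Between the libraries, the ratios farthest from 0 were those of *Myc* in late neutrophil classes. In imNeu-like, imNeu/mNeu and mNeu-like cells its level could not be told from background. In PreNeu-like cells it lay above the free RNA estimate, which rests on 16 and 20 droplet UMIs. The PreNeu-like level in Ctrl was not set apart from the mNeu-like level (log2 ratio 0.02, -0.49 to 0.55). PreNeu-like cells are thus not a clear exception. Of 90 pairs of a member and a class, 70 held at least 20 UMIs. In 5 of these the library labelled cKO was at least 2-fold lower, where 8.73% of all gene and class pairs were, and in 1 it was at least 2-fold higher, where 0.958% were. The 5 of 70 are thus no larger a share than that of all genes. *Myc* made up 4 of the 5: its log2 ratio of cKO over Ctrl was -1.43 (-1.90 to -0.97) in PreNeu-like, -2.68 (-4.26 to -1.36) in imNeu-like, -2.30 (-3.74 to -0.97) in imNeu/mNeu and -2.72 (-3.83 to -1.74) in mNeu-like cells. In those classes 8.51%, 12.6%, 15.9% and 19.8% of all genes were at least 2-fold lower. When each cell weighed the same in a mean over cells, the PreNeu-like ratio was 0.061, so that call depends on how cells are weighted.

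Other transcripts of immature cells were also lower in cKO in the classes after PreNeu. In mNeu-like cells all 9 primary granule markers were lower in cKO, 6 of them at least 2-fold, with a summed share of 0.136% in Ctrl and 0.0605% in cKO and none at 0. All 38 cell cycle genes were lower there, from 0.0711% to 0.0227% in sum. Of the MYC-activated list, 29 of 40 tested were at least 2-fold lower in mNeu-like cells and 24 of 40 in imNeu-like cells, against 0 of 43 in HSC/MPP-like and in ProNeu-like cells, where 4.08% and 4.03% of all genes were. The free RNA estimate for *Myc* was up to 7.84 CPM in Ctrl and 1.04 CPM in cKO in imNeu-like cells, against 5.18 and 0.807 CPM counted, and up to 8.87 and 1.03 CPM in imNeu/mNeu cells, against 5.76 and 1.17 CPM. The 3 calls after PreNeu thus compare levels that could not be told from background. Clusters drawn without the members also split these classes by library, since the main imNeu-like cluster held 734 Ctrl and 0 cKO cells. In PreNeu-like cells primary granule markers summed to 0.453% in Ctrl and 0.497% in cKO. There 28 of 38 cell cycle genes were lower in cKO, but only 13 lay below the all-gene median. The cell cycle list had a median of -0.25 against -0.36 for all genes. Of MYC-activated genes 14 of 43 were at least 2-fold lower, where 8.51% of all genes were, with a median of -0.76. The part that any of these has in the *Myc* ratios was not tested.

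In progenitor classes the 5 *Myc* ratios were below 0 and short of 2-fold, at -0.25 in HSC/MPP-like, -0.16 in GMP-like, -0.50 in ProNeu-like, -0.86 in ProMon-like and -0.54 in MEP-like cells. The interval excluded 0 in all of these but the GMP-like cells. In ProMon-like cells *Myc* lay near the free RNA estimate. It stood at 18.8 against up to 18.9 CPM in Ctrl and 10.4 against up to 8.70 CPM in cKO, so that ratio is not read. The median over all genes was itself below 0, from -0.09 in HSC/MPP-like to -0.47 in mNeu-like cells, and relative to it the 9 *Myc* ratios ran from -2.29 to -0.03. Within the 6 matched bins of ProNeu-like and PreNeu-like cells *Myc* was lower in cKO in 6, at -0.49 to -2.26, with the interval below 0 in 5, where the all-gene median of a bin lay between -0.33 and -0.24. The last bin held 5.69 CPM in Ctrl and 1.77 CPM in cKO, under the PreNeu-like free RNA estimates of 6.21 and 2.41 CPM. The cKO level behind the ratio of -2.26 was 2.62 CPM, close to that estimate. *Mxd4* and *Mxi1* were lower in cKO in all 14 bins of both axes, with 10 and 9 intervals below 0. In these bins, however, 65.7% to 84.4% of all genes were below 0, with all-gene medians between -0.50 and -0.24. *Mxi1* lay at or above that median in some bins. *Mxd4* lay above it in the first secondary granule bin, at -0.16 against -0.26. It was level with it in the last mature bin, at -0.32 for both, and below it in the rest. The count of bins below 0 thus sets neither gene apart. The lower level in the whole cKO library, 39.1 against 80.9 CPM, mixes these ratios with the numbers of cells in each class, of which HSC/MPP-like cells made up 492 in Ctrl and 133 in cKO.

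The repressors differed less. *Mxi1* was below 0 in 9 of 9 classes, between -0.60 and -0.27, with 7 intervals below 0, and stayed below the all-gene median in 8. In PreNeu-like, imNeu-like and mNeu-like cells it lay close to that median, at -0.07, -0.02 and -0.04 relative to it. *Mxd4* was below 0 in 8 of 9 with 6 intervals below 0. It reached 2-fold in MEP-like cells at -1.10 (-1.74 to -0.51), from 141 and 28 UMIs, where 7.31% of genes were at least 2-fold lower. Relative to the all-gene median it was -0.93 there, just short of 2-fold. Over the classes *Mxd4* lay below that median in 7 of 9, and above it in GMP-like and ProNeu-like cells, at 0.23 and 0.08 relative to it. The share of all genes with an interval below 0 is not given, so the counts of intervals are not read as particular to *Mxi1* and *Mxd4*. *Mxd3* was above 0 in 6 of 6 classes tested. In imNeu-like, imNeu/mNeu and mNeu-like cells it had too few UMIs to be tested. Its ratios there were -0.40, -1.98 and -1.15, with intervals that held 0. Within the 14 bins of the neutrophil path *Mxd3* was below 0 in 8, and 3 intervals lay above 0. The share of all genes above 0 is not given, so the count of classes is not read as a rise throughout. The call of *Mxd3* was in GMP-like cells, at 1.29 (0.10 to 2.52), from 12 and 15 UMIs, where 0.704% of genes were at least 2-fold higher. Its better counted ratio was 0.40 (0.25 to 0.55) in PreNeu-like cells, from 658 and 916 UMIs.

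The other members had smaller ratios or wider intervals. *Mxd1* ranged from -0.82 in ProNeu-like to 0.16 in imNeu-like cells and stood at -0.13 (-0.19 to -0.07) in mNeu-like cells. *Max* ranged from -0.30 to 0.24, with 7 of 9 intervals holding 0. The interval held 0 in 9 of 9 classes for *Mlx* and in 8 of 9 for *Mnt*. For *Mxd1*, *Max*, *Mnt* and *Mlx*, directions between the libraries turn in some classes once ratios are taken relative to the all-gene median, so none is read from them. *Mycn* in HSC/MPP-like cells was at 0.60 (0.05 to 1.13), from 89 and 45 UMIs. The class held 492 Ctrl and 133 cKO cells, and the mix of stem and later progenitors within it was not tested.

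**Figure D5:**
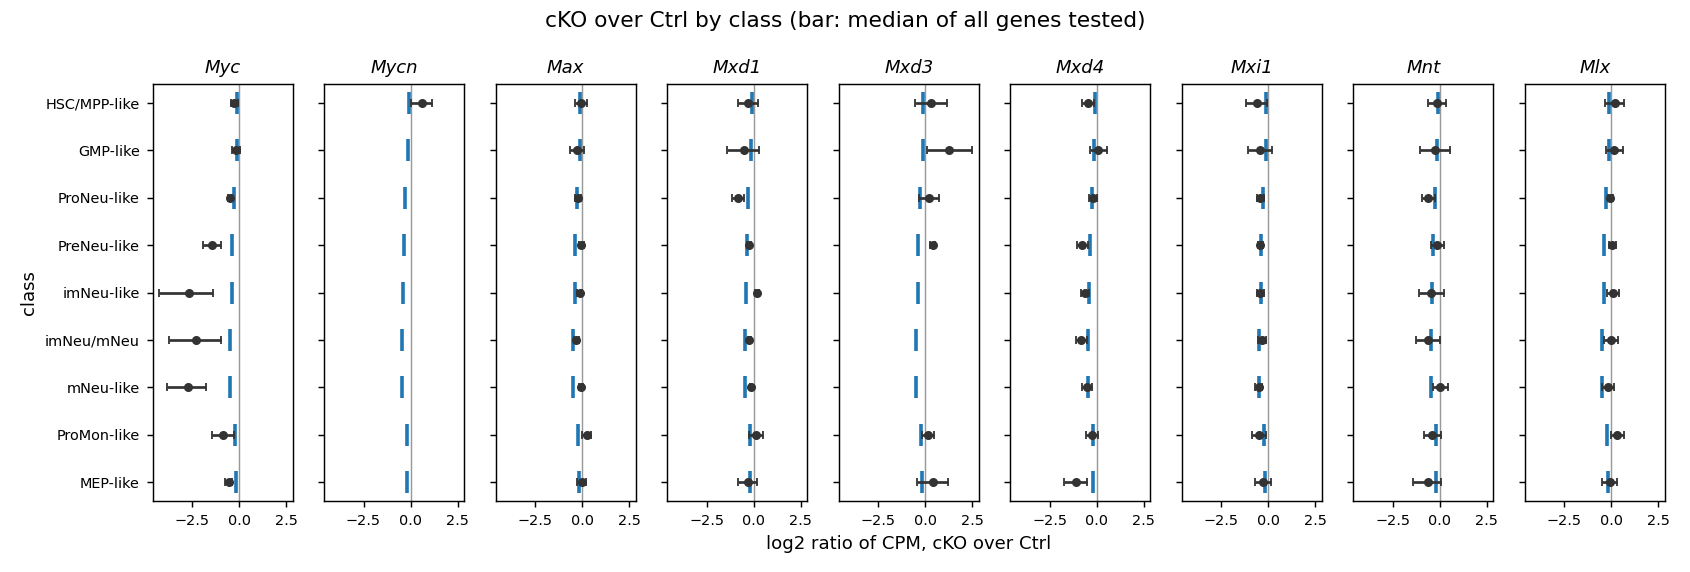
Log2 ratio of the cKO over the Ctrl library for each member in 9 classes (points with 95% binomial intervals), with the median of all genes tested in that class as a blue bar. *Myc* lies lowest, down to -2.72 in mNeu-like cells, while *Max* stays between -0.30 and 0.24 and the all-gene median runs from -0.09 to -0.47.

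The genes whose profile was most like that of a member were looked up among 9634 genes over the 9 classes, by the lower of the Pearson r in Ctrl and in cKO. The 9 points of a library share its depth and sequencing run, and the coefficients are a description. *Myc* ran closest with *Nme4*, a nucleoside diphosphate kinase of mitochondria (r = 0.99 in both), *Wdr12*, a ribosome biogenesis factor that is itself on the MYC-activated list, and the cobalamin receptor *Cd320*. *Mxd1* ran closest with *R3hdm4* (0.99 in both), *Slfn4* and *Abtb1*, and *Max* with *Grina* (0.98 and 0.99), *Prok2* and *Gm20406*. *Mxd3* ran with *Tcf19* (0.98 in both), *Cdkn2c* and the cohesin subunit *Rad21*. *Mycn* ran with *Lat*, *Gm5111* and *Rab27b*, *Mxi1* with *Gm39556*, *Il1r2* and *Lrg1*, and *Mnt* with *Zfp36l2*, *Kdm3b* and *Erbin*. Of the 9 classes, *Mycn* stood above 1.40 CPM in HSC/MPP-like cells alone, so its likeness rests on that class. The megakaryocyte-like class, where *Mycn* was highest in Ctrl, was not among the 9. The likeness was weaker for *Mlx* with *Svip* (0.91 and 0.85), *Dctn1* and *Afap1*. Between members, *Max* and *Mxd1* had r = 0.94 in both libraries, *Mxi1* and *Mxd1* 0.94 and 0.92, *Myc* and *Mxd1* -0.82 and -0.90, and *Myc* and *Mxi1* -0.89 and -0.93.

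Since the network's proteins bind CACGTG, the promoters of its own genes were searched for it. RefSeq promoter sequences of build GRCm38.p6, reaching from 250 bases before to 50 after each start site, were at hand for 9 of the 10 members. On either strand, CACGTG, which reads the same on both, was found in 4 of 9 members against 8.09% of 27025 genes. The 4 are shown because they place the site of the network inside its own promoters. Each window is printed from 5′ to 3′ on the gene's strand with the site in capitals.
Max, chr12:76962222-76962275, minus strand: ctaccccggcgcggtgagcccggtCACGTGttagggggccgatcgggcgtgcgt
Mlx, chr11:101087226-101087279, plus strand: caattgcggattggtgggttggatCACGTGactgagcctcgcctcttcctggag
Mnt, chr11:74830777-74830830, plus strand: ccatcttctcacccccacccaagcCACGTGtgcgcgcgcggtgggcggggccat
Mxd4, chr5:34187900-34187953, minus strand: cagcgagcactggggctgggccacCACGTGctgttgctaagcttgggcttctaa

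The site began 3 bases before the annotated start in *Max*, 40 in *Mlx*, 123 in *Mnt* and 219 in *Mxd4*. These genes had unlike profiles along the neutrophil path, with *Max* highest in mNeu-like, *Mlx* in ProNeu-like, *Mnt* in HSC/MPP-like cells and *Mxd4* in lymphoid classes of Ctrl. The E2F-type motif TTTGGCGC occurred 2 times in the *Mycn* promoter and in 0.514% of the 32851 promoters. The related TTTCCCGC occurred in no member and in 1.07% of promoters. These matches are a description of the letters in these windows, and binding was not measured.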

How the data were processed

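Single-cell transcriptomes were measured in 2 libraries. The authors deposited 1 matrix of raw UMI counts per library, made with Cell Ranger 5.0.0 on mm10 per the submitters' processing notes and a 3′-end droplet kit. The counts are not normalized. The members and gene lists were chosen with earlier results of these data known.

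Kept cells had 200 to 9000 genes and a mitochondrial share of no more than 30%. No doublet caller was run and no doublets were removed. Droplets with both primary granule and mature neutrophil RNA were kept out of the imNeu-like to mNeu-like classes. Labels of other lineages, such as macrophage-like, overrode that rule. Classes came from marker gates without the members. The neutrophil gates used shares of primary granule, secondary granule, mature and cell cycle UMIs. Counts were summed per class and library and given as CPM, with a log2(CPM + 1) only for likeness. A ratio needed at least 20 UMIs in the 2 sums together, and at least 2-fold was called. With 1 library per group no test across libraries was possible, and 95% intervals (exact Poisson, exact binomial, Clopper-Pearson) cover counting error only, between 2 libraries and not between genotypes. A count of 0 was set to a floor of 3 UMIs. Library totals were 71527701 and 64393950 UMIs.

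The text names the 10 members, the 3 most alike genes per member (at least 100 UMIs, at least 10 CPM in 1 class of each library, sex-linked genes left out), the 2 highest and 2 lowest of each of 4 lists (MYC-activated, 45 genes; MYC-repressed, 9; partners and cofactors, 30; cell cycle, 38), and genes a result turns on. The genes most like *Mxd4* are not reported here. The neutrophil genes named in that rule to gauge free RNA were replaced by whole marker lists. Alternatives were depth, mitochondrial, gating, cluster, denominator, weighting, scaling, fold and UMI settings. Coordinates are of GRCm38. Python 3.11.15, numpy 2.4.6, scipy 1.17.1, pandas 2.3.3, igraph 0.11.9, leidenalg 0.10.2 and matplotlib 3.10.9 were used, and the code was tested on simulated data.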

Additional observations from a re-analysis of the deposited data

How the results depend on the processing

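The direction of the *Myc* fall and the *Mxd1* rise from HSC/MPP-like to mNeu-like cells held under every alternative run. Of members at least 2-fold changed there in both libraries, 3 were higher and 3 lower, which became 1 and 5 in UMIs per cell, where the *Mxi1* ratio in Ctrl turned to -0.11. Between libraries, 5 pairs of a member and a class were lower in cKO, against 3 with at least 50 UMIs and 14 at a fold of 1.5. The *Myc* call in imNeu-like and mNeu-like cells was made under each alternative but the filter of at least 50 UMIs. That filter left out the imNeu-like pair. Most of the *Myc* UMIs of these pairs came from Ctrl, at 25 against 6 in imNeu-like and 42 against 11 in mNeu-like cells. The *Myc* levels compared could not be told from background in either library, so it is not read that these calls held. The count of 1 higher pair became 0 with at least 50 UMIs, 0 with graph clusters, 2 at a fold of 1.5, 3 with the mean of per-cell CPM and 2 with the stricter gate. The share of all genes under these settings is not given, so the counts show only how far the setting matters. The *Myc* ratio in PreNeu-like cells turned to 0.061 with the mean of per-cell CPM. The cause of these changes was not tested. The MYC-activated count of 42 did not move under the alternatives run for it. The count of 6 sets with *Mxd3* called did not move either. Those sets passed the filter through the cycling group, so that count is not read. Of the ratios of cKO over Ctrl recomputed, 420 moved by less than their counting interval, 58 by more and 1 reversed, and of those along the neutrophil path 77, 38 and 1. Of the levels, 478 moved by less than their interval and 222 by more. No replicate could be left out with 1 library per genotype. No paired analysis was possible because each genotype has 1 library and they share only the replicate number 1. Depth limits *Mycl*, *Mycn* and the late *Myc* values, which rest on few UMIs.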
